A study of Mus musculus with 8 samples.

Results

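The regions described here are the H3K27me3 peaks of mouse chromosome 17 in morulae that developed from mRNA-injected zygotes. Chromosome 17 was chosen by its Kdm6bMUT coverage, the highest of the 19 autosomes in the Kdm6bMUT list, so that value and everything else drawn from the Kdm6bMUT list describe the chromosome and were not tested. All peaks on the chromosome in both lists were taken. They are 3823 of the 90158 Kdm6bMUT peaks (4.24%) and 186 of the 4991 Kdm6bWT peaks (3.73%), or 4009 peaks of both lists together.

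The series holds 8 samples, of which the 2 H3K27me3 ChIP libraries of morulae gave the peak lists used here, each called against an input library. Oocytes of superovulated BDF1 females aged 8 weeks were fertilized in vitro, and the strain tag of both ChIP samples is BDF1xPWK. The zygotes were injected with mRNA at 1.8 µg/µl, from 2.5 h to 4 h after fertilization. The Kdm6bWT group received mRNA for Kdm6b and the Kdm6bMUT group mRNA for a mutant form of it, so both groups were injected and neither is an uninjected control. The titles of both inputs carry the injection names, whereas their treatment tag says that they were not injected. The 4 blastocyst RNA libraries were not analysed here. Each injection has 1 ChIP library and no replicate, so no difference between injections could be set against a spread between replicates, and no test was made.

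Kdm6b is an enzyme that takes methyl groups off lysine 27 of histone H3. Trimethylation of that residue, H3K27me3, is laid down by Polycomb repressive complex 2 and marks repressed genes. In mouse oocytes it also forms broad domains in regions without active genes, and the maternal copy of these domains passes into the early embryo, where it can silence the maternal allele of some genes, Xist among them. Mouse chromosome 17 is acrocentric, with its centromere at the low end of the coordinates. Its centromere side is known for the t haplotypes, variants that distort inheritance in males, for the imprinted Igf2r cluster, and for the major histocompatibility complex, a gene-dense region of antigen-presentation, complement and cytokine genes.

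Kdm6bMUT peaks covered 11.4 Mb of chromosome 17, or 12.5% of the 91.3 Mb from its first to its last peak (mm9, chromosome 17, positions 3005873 to 94350060). The autosomes next below it were chromosomes 9 and 14, both at 11.9%, the lowest was chromosome 19 at 5.84%, and the autosomes together stood at 10.3%. Chromosome 17 made up 3.80% of the autosomal length and held 4.60% of the autosomal Kdm6bMUT bases. In peak number its place was second, with 41.9 peaks per Mb against 43.5 on chromosome 14 and 36.9 over all autosomes. Its peaks had a mean width of 2978 bases, the fourth highest, against 2787 over the autosomes, and a median of 1618 against 1582.5 bases. Both more peaks per Mb and a higher mean width therefore stood behind the coverage, by modest amounts each. The median fold enrichment of ChIP over input, as deposited, was 3.09 (quartiles 2.88 and 3.30), against 3.07 over all autosomal peaks.

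Kdm6bWT peaks covered 131 kb of the chromosome, or 0.144%, which was the seventh highest of the 19 autosomes and lay close to the 0.140% of the autosomes together. The other autosomes ranged from 0.111% (chromosome 1) to 0.216% (chromosome 11). Chromosome 17 held 3.89% of the autosomal Kdm6bWT bases. The Kdm6bMUT peaks covered 86.7 times as many bases as the Kdm6bWT peaks, the third highest ratio after chromosomes that reached up to 94.8 (chromosome 7). The first place of chromosome 17 in the Kdm6bMUT list was thus not met in the Kdm6bWT list. Its rank there was 3 with a score of at least 13, 5 with peaks less than 5 kb apart merged and 8 for peaks of at least 1 kb. The chromosome was chosen for its place in the Kdm6bMUT list, so a lower place in the other list carries little weight. Depth is unknown for both libraries, and the weakest peak accepted differed between the lists, so the ratio is of these lists and not of the mark itself.

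The high total came from a limited set of windows. In windows of 1 Mb, the chromosome had a median of 47.8 kb of Kdm6bMUT coverage, only the fifteenth highest of 19 and below the 56.9 kb of all autosomal windows. Its mean window had 124 kb, against 102 kb. The quartiles were 5.33 kb and 184 kb on chromosome 17 and 10.0 kb and 149 kb over the autosomes, so both its sparse and its dense windows were more extreme. Of its 92 windows, 16 had at least 300 kb of coverage (17.4%), the highest share of any autosome, followed by chromosome 11 at 12.6%, with 213 of 2420 windows (8.80%) over all autosomes. Another 46 windows (50%) had less than 50 kb, against 47.2% over the autosomes. Windows with no Kdm6bMUT coverage numbered 8 of 92 (8.70%, 95% exact binomial interval 3.83% to 16.4%), which is near the autosomal background of 7.89% and therefore no feature of this chromosome. The 10 most covered windows held 38.7% of its Kdm6bMUT bases, the third highest share among autosomes that ranged from 22.3% to 54.9%. However, 10 windows are a larger part of a shorter chromosome. The autosomes with higher shares, chromosomes 18 (40.0%) and 19 (54.9%), are the only shorter ones, so this place cannot be told apart from length.

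**Figure D1:**
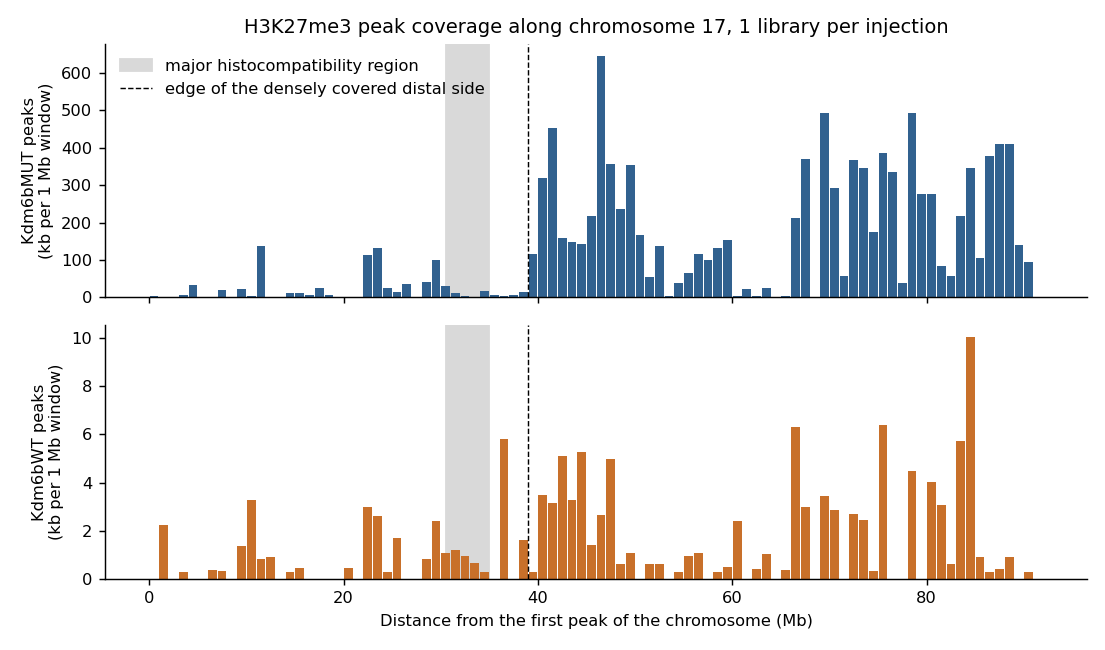
Coverage of chromosome 17 by Kdm6bMUT peaks (top) and Kdm6bWT peaks (bottom) in kb per window of 1 Mb, against the distance in Mb from the first peak, with 1 library per injection. The dashed line stands at the edge chosen from these values and the grey band at the major histocompatibility region. Kdm6bMUT coverage is at most 136 kb in every window left of the line and reaches 645 kb to its right, while Kdm6bWT bars of several kb stand on both sides.

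Along the chromosome, Kdm6bMUT coverage was thin from the centromere to about 42 Mb and dense in most windows beyond. The edge at 42 Mb was set after the values were seen, and the values on either side of it are a description. The 39.0 Mb on the centromere side held 467 Kdm6bMUT peaks, with 847 kb of coverage, 2.17% of that length. The 52.4 Mb on the distal side held 3356 peaks, with 20.1% of the length and 92.6% of the chromosome's Kdm6bMUT bases. Coverage was thus 9.26 times higher on the distal side. The number of peaks per Mb differed 5.35 times (12.0 against 64.1) and their mean width 1.73 times (1814 against 3140 bases). Peaks of 10 kb or more numbered 6 on the centromere side and 194 on the distal side. The sides thus differed in how much of the length was called. The median fold enrichment of the called peaks was 3.01 and 3.09. Only peaks that passed the caller's limit have such a value, so these medians cannot say how far the strength of the mark differed.

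Kdm6bWT peaks had a weaker version of the same order. The centromere side had 45 of them, with 33.2 kb of coverage (0.0852%), and the distal side 141, with 98.0 kb (0.187%), a ratio of 2.2. The rate was 1.15 peaks per Mb (95% exact Poisson interval 0.842 to 1.54) against 2.69 (2.27 to 3.18). These intervals cover counting error only and do not allow for an edge that was chosen with the values seen. The ratio of Kdm6bMUT to Kdm6bWT bases was 25.5 on the centromere side and 107 on the distal side. In other words, the centromere side held 25.3% of the Kdm6bWT bases of the chromosome and 7.44% of its Kdm6bMUT bases.

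**Figure D2:**
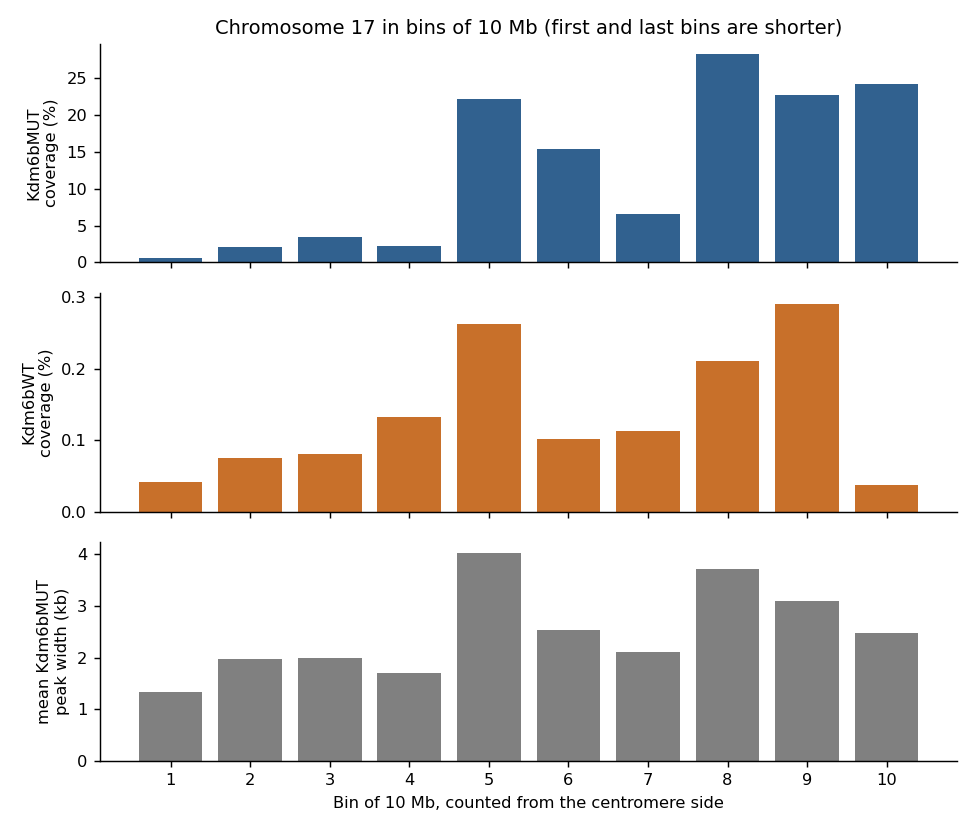
Share of each 10 Mb bin covered by Kdm6bMUT peaks (top, %), by Kdm6bWT peaks (middle, %) and mean width of Kdm6bMUT peaks (bottom, kb) along chromosome 17, counted from the centromere side. The first 4 bins have 0.649% to 3.52% Kdm6bMUT coverage, the bins beyond have 6.55% to 28.2%, and the last bin is high in Kdm6bMUT coverage and lowest in Kdm6bWT coverage.

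In bins of 10 Mb, Kdm6bMUT coverage was 0.649%, 2.10%, 3.52% and 2.19% up to 40 Mb. It was then 22.2%, 15.3% and 6.55% up to 70 Mb and 28.2%, 22.7% and 24.2% from there to the end. Kdm6bWT coverage of the same bins went from 0.0416% in the first bin to 0.132% between 30 and 40 Mb and 0.262% between 40 and 50 Mb. It was highest between 80 and 90 Mb, at 0.291%, and lowest in the last bin, at 0.0371%. The distal side itself was made of 2 dense blocks with a sparser stretch between them. From 42 to 54 Mb, 882 Kdm6bMUT peaks covered 27.6% of the length. From 54 to 69 Mb, 487 peaks covered 5.75%. From 69 to 94 Mb, 1986 peaks covered 25.4%. Kdm6bWT peaks followed this pattern up to 89 Mb. They had 3.83 per Mb (exact Poisson interval 2.81 to 5.11) in the block from 42 to 54 Mb and 0.933 (0.510 to 1.57) in the sparser stretch. The second block had 3.24 per Mb as a whole, but this joins 3.80 from 69 to 89 Mb with 1.00 from 89 to 94 Mb. Of the 14 Kdm6bWT peaks in the sparser stretch, 2 lay on a Kdm6bMUT peak.

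The centromere side was not evenly thin. Of its 39 windows, 35 had less than 50 kb of Kdm6bMUT coverage, and 4 had at least 100 kb, namely those from 14 to 15 Mb (136 kb), 25 to 26 Mb (115 kb), 26 to 27 Mb (131 kb) and 32 to 33 Mb (100 kb). These 4 windows held 57.0% of the Kdm6bMUT bases on that side, and outside them 1.04% of its length was covered. On the distal side 36 of 53 windows had at least 100 kb and 11 had less than 50 kb. Its median window had 154 kb, against 6.08 kb on the centromere side. A stretch of 40 windows in a row with less than 150 kb each ran from 3 to 43 Mb, the second longest such stretch of any autosome after 46 windows on chromosome 8.

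The 10 windows with the most Kdm6bMUT coverage all lay distal to 42 Mb. The window from 49 to 50 Mb had the most, with 645 kb in the Kdm6bMUT list and 2.65 kb in the Kdm6bWT list, and was the fourth most covered window of all autosomes. The windows from 72 to 73 Mb and from 81 to 82 Mb had 494 kb each, with 3.46 kb and 4.47 kb in the Kdm6bWT list. The window from 44 to 45 Mb followed with 453 kb and 3.13 kb. Those from 90 to 91 Mb and from 91 to 92 Mb had 410 kb and 409 kb in the Kdm6bMUT list but only 0.395 kb and 0.92 kb in the Kdm6bWT list. The window from 78 to 79 Mb had 386 kb and 6.39 kb. The remaining 3 were those from 89 to 90 Mb (377 kb and 0.300 kb), 70 to 71 Mb (371 kb and 3.00 kb) and 75 to 76 Mb (369 kb and 2.70 kb), and the next window below them had 356 kb. Kdm6bWT coverage in these 10 windows was thus between 0.0796% and 1.66% of the Kdm6bMUT coverage. Of the 100 most covered autosomal windows, 6 were on chromosome 17, which has 3.80% of all autosomal windows.

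Windows without a Kdm6bMUT peak began at 5, 8, 11, 15, 16, 22, 67 and 71 Mb. The last of these lay between windows with 371 kb and 494 kb, inside the dense distal block. Only the window from 15 to 16 Mb had Kdm6bWT coverage. The other 7, that from 71 to 72 Mb among them, were empty in both lists, against 121 of 2420 autosomal windows. Assembly gaps and repeats were not masked, so in these 7 a lack of the mark cannot be told apart from a lack of readable sequence. Stretches of at least 3 windows in a row with less than 1% coverage each ran from 3 to 7 Mb, from 21 to 25 Mb and from 38 to 41 Mb. The first of them had 10.3 kb of Kdm6bMUT coverage and 2.55 kb of Kdm6bWT coverage in 6 peaks. The second had 8.37 kb and a single Kdm6bWT peak of 0.461 kb. The third, just distal to the major histocompatibility region, had 17.9 kb and a single Kdm6bWT peak of 5.81 kb. The longest gap between neighbouring Kdm6bMUT peaks was 3091 kb (14886441 to 17977799) and held 2 Kdm6bWT peaks. The next were 2303 kb (4626567 to 6929611, 3 Kdm6bWT peaks), 2281 kb (21203236 to 23484296, none) and 2180 kb (10158051 to 12338041, 1 peak). Of 34 gaps of at least 500 kb, 19 lay before 42 Mb. The median gap was 4.30 kb on the centromere side and 2.64 kb on the distal side, so peaks on the sparse side also came in clusters.

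Every autosome had more Kdm6bMUT coverage in its distal 50% than in its centromere-side 50%, and chromosome 17 had the widest difference. Cut at the middle of its length, it had 4.92% on the centromere side, the sixteenth highest of 19, and 20% on the distal side, the highest, followed by chromosome 14 at 17.3%. The ratio of the sides was 4.07, against 1.01 (chromosome 5) to 3.36 (chromosome 12) on the other autosomes, with a median of 2.19 over those 18. The distal 50% held 80.3% of its Kdm6bMUT bases. In the Kdm6bWT list the sides had 0.119% and 0.169%, a ratio of 1.42, which was the ninth highest. The other autosomes ranged from 0.732 (chromosome 11) to 2.13 (chromosome 12) with a median of 1.38, so the side-to-side difference of chromosome 17 in the Kdm6bWT list was ordinary.

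**Figure D3:**
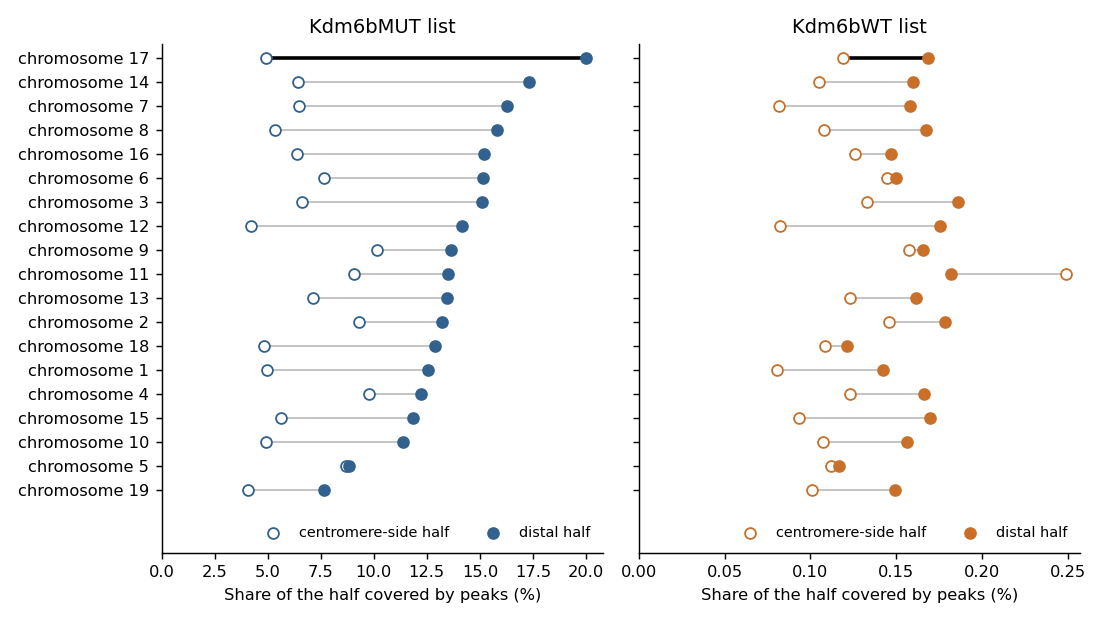
Share of the centromere-side 50% (open circles) and distal 50% (filled circles) of each autosome covered by Kdm6bMUT peaks (left, %) and Kdm6bWT peaks (right, %), ordered by the distal Kdm6bMUT value, with 1 library per list. Chromosome 17, drawn with a black line, runs from 4.92% to 20% in the Kdm6bMUT list and from 0.119% to 0.169% in the Kdm6bWT list.

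The major histocompatibility region, taken from 33500000 to 38000000, had very little Kdm6bMUT coverage. It held 31 Kdm6bMUT peaks with 36.6 kb of coverage, 0.813% of its 4.5 Mb and 0.321% of the chromosome's Kdm6bMUT bases. The widest had 3.35 kb (35337761 to 35341107), the median width was 1129 bases, and none reached 5 kb. Their fold enrichments ran from 2.48 to 3.66 with a median of 2.89, below the chromosome's 3.09. The centromere side as a whole had a median of 3.01 and the 4 Mb after the region 2.86, so this was not particular to the region. No Kdm6bMUT peak lay between 35.5 and 36.5 Mb. Laid end to end, the other 17 stretches of 4.5 Mb on the chromosome all had more coverage, but that order rests on where the stretches begin. Stretches of this grid that met the region were left out, so the sequence next to it on both sides is in none of the 17. In steps of 500 kb, 8 of 156 stretches outside the region had less, with the lowest, 0.452%, from 20.5 to 25 Mb. With the bounds of the region moved out by 500 kb on both sides, its coverage was 1.22%, above 4 of the 17. Of 515 other autosomal stretches of that length laid end to end, 30 (5.83%) had less Kdm6bMUT coverage, and their median was 9.22% (quartiles 3.95% and 15.2%). Low coverage was not bounded by the region, however. The 4 Mb after it had 0.790%. Before it, coverage was 2.55% from the first peak to its start, and the 500 kb from 32.5 to 33.0 Mb alone had 95.1 kb. Assembly gaps and repeats were not masked here either, and how well reads could be placed in the region was not tested.

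**Figure D4:**
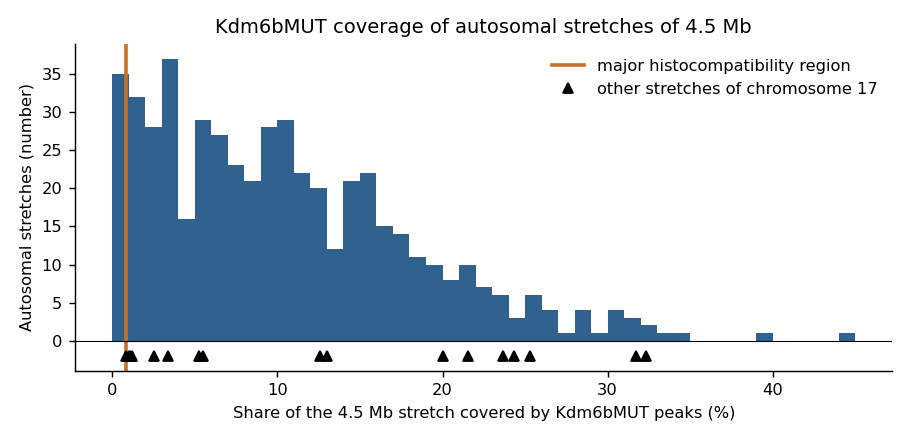
Number of autosomal stretches of 4.5 Mb, laid end to end, by the share of their length covered by Kdm6bMUT peaks (%). The major histocompatibility region is an orange line and the other stretches of chromosome 17 are black triangles. Stretches that met the region were left out. The region, at 0.813%, lies left of the 17 triangles of this grid, and 30 of 515 stretches lie left of it. In steps of 500 kb, 8 of 156 stretches of the chromosome had less.

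Kdm6bWT peaks in the region numbered 8, with 3.55 kb or 0.0790% of its length, and 163 of the 515 other stretches (31.7%) had less. Their rate of 1.78 per Mb (exact Poisson interval 0.768 to 3.50) took in the chromosome's 2.04 per Mb, so a shortage of Kdm6bWT peaks was not detectable with so few. Only 1 of the 8 met a Kdm6bMUT peak, where 37943932 to 37944231 in the Kdm6bWT list shared 228 bases with 37942586 to 37944159 in the Kdm6bMUT list. A Kdm6bWT peak of 672 bases (36368009 to 36368680) had a fold enrichment of 8.46 and lay 373 kb from the nearest Kdm6bMUT peak. It stood in the longest Kdm6bMUT gap of the region, 1401 kb from 35341108 to 36741829, together with 2 further Kdm6bWT peaks.

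Peaks of 10 kb or more and long clusters of peaks lay mostly or wholly on the distal side. On the whole chromosome 200 Kdm6bMUT peaks (5.23%) reached 10 kb and held 27.5% of its Kdm6bMUT bases, against 4.28% of peaks and 23.8% of bases over the autosomes. The widest spanned 54.1 kb (49967808 to 50021912, fold enrichment 3.67). The next were 37.3 kb (78620870 to 78658178), 36.6 kb (49051851 to 49088460), 34.6 kb (89199271 to 89233901) and 32.9 kb (43680657 to 43713519). None of these 5 shared a base with a Kdm6bWT peak. Only 19 of the 200 peaks of 10 kb or more did (9.50%), so this is no feature of the widest peaks. The nearest Kdm6bWT peaks were 39.9 kb, 9.23 kb, 40.7 kb, 104 kb and 201 kb away, in the same order. By score, which follows the q value, the highest Kdm6bMUT peak was far narrower, with 736 bases (77650377 to 77651112, score 41, fold enrichment 4.65). A peak with a score of 39 (13498725 to 13499142) lay wholly inside a Kdm6bWT peak.

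Runs of Kdm6bMUT peaks with gaps under 10 kb between neighbours and a length of at least 200 kb numbered 27 on chromosome 17, of 382 on the autosomes (7.07%). That is 29.6 runs per 100 Mb, the highest of the autosomes, against 21.0 on the next and 15.9 over all of them. They held 45.3% of the chromosome's Kdm6bMUT bases, also the highest share, with 6.34% to 38.3% on the others. None lay before 42 Mb. The longest ran over 520 kb (75335577 to 75855166), with 62 peaks that filled 69% of it, and was the 28th longest of the 382. The next ran over 441 kb (49608146 to 50049571), with 76.4% filled, 416 kb (44316894 to 44733202) and 411 kb (90590288 to 91001188). Chromosome 17 thus stood out by how many long runs it had and not by the length of any single run. The fill ranged from 36.0% to 79.7% over its 27 runs. In 5 of them (18.5%) there was no Kdm6bWT peak, near the 17.8% of all autosomal runs. In the median run Kdm6bWT peaks overlapped 0.404% of the Kdm6bMUT bases, against 0.484% over the autosomes, and the highest share was 3.06% (69298105 to 69500205).

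Of the 3823 Kdm6bMUT peaks of the chromosome, 98 shared at least 1 base with a Kdm6bWT peak (2.56%, 95% exact interval 2.09% to 3.12%). This is near the 2.66% of the whole Kdm6bMUT list, and the chromosome was the eleventh highest of the 19 autosomes. By base, Kdm6bWT peaks held 0.585% of its Kdm6bMUT coverage, against 0.591% over the autosomes. The share touched was higher among wider Kdm6bMUT peaks, from 7 of 1178 peaks up to 1 kb (0.594%) to 26 of 1513 from 1 to 3 kb (1.72%), 46 of 932 from 3 to 10 kb (4.94%) and 19 of 200 of at least 10 kb (9.50%, exact interval 5.82% to 14.4%). By base the same classes stood at 0.384%, 0.566%, 0.592% and 0.634%, a much narrower range than by number. The share was 2.78% on the sparse side of the chromosome (13 of 467 peaks, exact interval 1.49% to 4.71%) and 2.53% on the dense side (85 of 3356, 2.03% to 3.12%), a difference within counting error.

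From the Kdm6bWT side, 104 of 186 peaks lay on a Kdm6bMUT peak (55.9%, exact interval 48.5% to 63.2%). The whole Kdm6bWT list stood at 49.5%, inside that interval, so the share is not apart from the background by count. By base, Kdm6bMUT peaks held 50.8% of the Kdm6bWT coverage, the highest of the autosomes, with 30.7% to 49.3% on the others. This share was uneven along the chromosome. On the centromere side 13 of 45 Kdm6bWT peaks (28.9%, exact interval 16.4% to 44.3%) lay on a Kdm6bMUT peak, and on the distal side 91 of 141 (64.5%, 56.0% to 72.4%). These shares move with Kdm6bMUT coverage, 2.17% and 20.1% on the respective sides, and the part of that difference in coverage was not tested. Of the 82 Kdm6bWT peaks off Kdm6bMUT peaks, 44 were within 5 kb of one. Another 13 were more than 100 kb away, 9 of them before 42 Mb, and the farthest stood 464 kb away (63463136 to 63463700). Peaks on and off Kdm6bMUT peaks had the same median fold enrichment of 3.85, with median widths of 543 and 423 bases.

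The strongest Kdm6bWT peaks lay on the side where Kdm6bMUT coverage was thin. The 5 with the highest scores were all before 42 Mb. The first (4625997 to 4626758) had a score of 1379 and a fold enrichment of 49.5, against a median of 3.85 over the Kdm6bWT peaks of the chromosome. It enclosed a Kdm6bMUT peak of 300 bases (4626267 to 4626566) with a fold enrichment of 3.34 and a score of 21, the only Kdm6bMUT peak in its window, and another strong Kdm6bWT peak stood 257 kb from that Kdm6bMUT peak (4883550 to 4884062, fold enrichment 10.5, score 141). The second by score was also the widest Kdm6bWT peak of the chromosome, with 5806 bases (39980092 to 39985897, fold enrichment 5.65, score 384), 40.7 kb from any Kdm6bMUT peak. The third was the peak inside the major histocompatibility region, with a score of 171. The fifth (13498698 to 13499241, fold enrichment 6.36, score 59) shared 418 bases with a Kdm6bMUT peak. Of the 8 Kdm6bWT peaks with a score of at least 30, 7 lay before 42 Mb, although the side holds 24.2% of the Kdm6bWT peaks. How peaks with such scores lie on the other autosomes is not given here. Assembly gaps and repeats were not masked, so whether they bear on these few strong peaks was not tested. Without the 5 strongest, Kdm6bWT coverage of the centromere side was 0.0639% in place of 0.0852%.

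The other wide Kdm6bWT peaks were mostly shared. The one of 2882 bases (78759650 to 78762531) and the one of 2496 bases (47306993 to 47309488) lay wholly on Kdm6bMUT peaks. Those of 2744 bases (13743364 to 13746107) and 2502 bases (69423911 to 69426412) shared 2561 and 1813 bases. At the other end of the range, 40 Kdm6bWT peaks (21.5%) had the smallest width of 300 bases.

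By window, Kdm6bWT coverage was highest from 87 to 88 Mb, with 10.0 kb in 14 peaks between 87043411 and 87879837, of which 11 lay on Kdm6bMUT peaks and shared 5.89 kb. The Kdm6bMUT coverage of that window was 346 kb. The windows from 78 to 79 Mb (6.39 kb), 69 to 70 Mb (6.32 kb) and 86 to 87 Mb (5.73 kb) also had 212 kb to 386 kb in the Kdm6bMUT list. The window from 39 to 40 Mb was different, with 5.81 kb from its single wide Kdm6bWT peak and 4.61 kb of Kdm6bMUT coverage. Only 3 windows had more Kdm6bWT than Kdm6bMUT coverage. These were the window from 39 to 40 Mb, the window from 4 to 5 Mb (2.25 kb against 0.300 kb), and the window from 15 to 16 Mb, where 0.923 kb of Kdm6bWT coverage had no Kdm6bMUT counterpart. All 3 lay on the centromere side. The number of such windows on the other autosomes is not given here. Windows with Kdm6bWT but no Kdm6bMUT coverage numbered 1 of 92 on this chromosome and 70 of 2420 over the autosomes, so they are no feature of it. Conversely, 5 of 40 windows with at least 100 kb of Kdm6bMUT coverage (12.5%) had no Kdm6bWT peak, against 73 of 892 (8.18%) over the autosomes. They began at 53, 60, 79, 82 and 92 Mb and had 166 kb, 100 kb, 335 kb, 277 kb and 141 kb. Over the 92 windows, Kdm6bMUT and Kdm6bWT coverage correlated with a Spearman rho of 0.51, against 0.53 over all 2420 autosomal windows, where windows of 1 list share a library and neighbours are not independent.

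**Figure D5:**
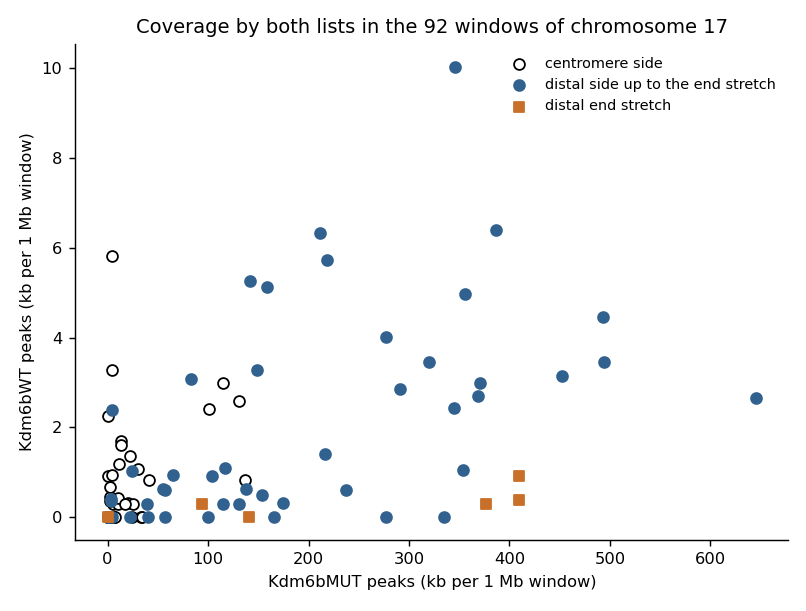
Kdm6bWT coverage against Kdm6bMUT coverage, both in kb per window of 1 Mb, for the 92 windows of chromosome 17, split into the centromere side (open circles), the distal side up to the end stretch (blue) and the end stretch beyond 89 Mb (orange squares). The 3 end-stretch windows with 377 kb to 410 kb of Kdm6bMUT coverage have at most 0.92 kb of Kdm6bWT coverage, whereas the window from 87 to 88 Mb reaches 10.0 kb.

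The end of the chromosome combined dense Kdm6bMUT coverage with almost no Kdm6bWT peaks. From 89 to 94 Mb, 553 Kdm6bMUT peaks covered 1430 kb (28.6%), while 5 Kdm6bWT peaks covered 1.92 kb (0.0383%). From 69 to 89 Mb, coverage in the Kdm6bMUT list was similar at 24.7%, but 76 Kdm6bWT peaks covered 56.3 kb (0.282%). The rates of Kdm6bWT peaks were 1.00 per Mb (exact Poisson interval 0.325 to 2.33) and 3.80 per Mb (2.99 to 4.76). Of the Kdm6bMUT peaks, 2 of 553 were touched in the end stretch (0.362%, exact interval 0.0438% to 1.30%), against 3.49% (2.60% to 4.57%) from 69 to 89 Mb. Just before the end stretch, the windows from 86 to 88 Mb had nearly the same Kdm6bMUT coverage, 28.2%, with 20 Kdm6bWT peaks and 0.788% Kdm6bWT coverage. The bounds of these stretches were set after the values were seen. The distance between the intervals therefore partly follows from that choice, and the values are a description. The share touched in the end stretch rests on the same few Kdm6bWT peaks.

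Against other dense autosomal sequence, the end stretch had little Kdm6bWT coverage. Of 471 autosomal stretches of 5 Mb laid end to end from 4 Mb, a start that makes 89 to 94 Mb a stretch of its own, 58 had at least 20% Kdm6bMUT coverage, 6 of them on chromosome 17. Kdm6bWT coverage of these 58 had a median of 0.208% (quartiles 0.163% and 0.293%). The stretch from 89 to 94 Mb, at 0.0383%, was the lowest of them, with the next at 0.0405%. In steps of 1 Mb on the other autosomes, 241 stretches had at least 20% Kdm6bMUT coverage, and 1 of them had no more Kdm6bWT coverage than the end stretch, at 0.0186%. In the last 5 Mb of each autosome, chromosome 17 had the highest Kdm6bMUT coverage, 25.9%, and the lowest ratio of Kdm6bWT to Kdm6bMUT bases, 0.125%. The next lowest was chromosome 16 at 0.601%, and the highest was chromosome 5 at 4.04%. By single windows, 4 of the 16 chromosome 17 windows with at least 300 kb had at most 0.92 kb of Kdm6bWT coverage. Over the autosomes, these 16 included, it was 30 of 213 (14.1%). The limit of 0.92 kb is the value of the window from 91 to 92 Mb in the end stretch itself, so these counts are a description. The median Kdm6bWT coverage of these dense windows was 2.85 kb on chromosome 17 and 2.97 kb over the autosomes, so the dense windows of the chromosome as a group held as much as others.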

How the data were processed

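Ultra-low-input native ChIP for H3K27me3 was made from morulae, and the authors deposited 1 peak list per injection in mm9. Bowtie2 2.2.2 and MACS2 are named for the series, per the submitters' processing notes. The lists have no header and follow a MACS2 broad layout of 9 columns. The deposited values per peak are a whole-number score, a fold enrichment (a ratio of ChIP over input), a −log10 p and a −log10 q, all the authors' own. How the caller was set, and what was done with duplicates and input depth, is not given in the sources used here. Depth is unknown, so precision is known only as counting error on peaks.

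Groups came from the titles. Peaks were counted, measured and overlapped (at least 1 shared base) in Python 3.11.15 (scipy 1.17.1, pandas 2.3.3, numpy 2.4.6) and plotted with matplotlib 3.10.9, after the code was checked on simulated lists. Windows of 1 Mb were counted from position 0, and only those that meet the span from the first to the last peak were used. Assembly gaps and repeats were not masked. Positions are given counted from 1. Intervals are exact (Clopper-Pearson or Poisson, 95%) and cover counting error only, since neighbouring peaks are not independent. With 1 library per injection no test was made, and fold enrichments were compared only within a list. Where peaks of both lists lie together, their values are given side by side and are not on a common scale of depth. No genome or annotation of mm9 was used, so no gene was placed on a peak and no sequence is shown. The regions named are the 10 most covered Kdm6bMUT windows, the 5 most covered Kdm6bWT windows, stretches of sparse windows, the widest and highest-scoring peaks, long runs and the major histocompatibility region. Other regions, the bounds at 42, 54, 69 and 89 Mb, and the comparisons in steps of 500 kb and 1 Mb were chosen after values were seen. The chromosome, the regions and these rules were chosen with earlier results of these data known. Alternatives were score and p limits, a minimum width, merging of near peaks, other windows, other bounds and a stricter overlap.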

Additional observations from a re-analysis of the deposited data

How the results depend on the processing

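The 9 results were recomputed under 42 alternatives, of which 26 stayed within the limit set for the result and 16 did not. The limit was the exact interval for shares of peaks and of windows, and a factor of 1.5 for the others, with peaks per Mb taken relative to the autosomes. Chromosome 17 was the most covered autosome in the Kdm6bMUT list with a score of at least 13 (12.3%), peaks of at least 1 kb (11.7%), peaks less than 5 kb apart merged (19.1%), a −log10 p of at least the lowest of the Kdm6bWT list, 3.67 (8.45%), the 5 most covered windows of each autosome left out (10.3%) and lengths from position 1 (12.1%). It was second by peaks per Mb, and by the median window (4.78% of the window) its place was fifteenth. Kdm6bWT coverage was 0.0725% with the score limit and 0.0677% for peaks of at least 1 kb. The share of Kdm6bMUT peaks touched was 1.43% with the score limit, 0.945% at 1 kb or more, 7.86% after merging, 0.235% with at least 50% overlap and 0.585% by base. The share of Kdm6bWT peaks on Kdm6bMUT peaks was 65.9% at 1 kb or more, 67% after merging and 48.4% with 50% overlap. Windows of 500 kb without Kdm6bMUT coverage were 18%. The major histocompatibility region had 1.22% with its bounds moved out by 500 kb on both sides. The distal-to-centromere ratio cut at the middle was 4.07 (Kdm6bMUT) and 1.42 (Kdm6bWT). The other settings, chosen after seeing the data, gave 8.28 to 13.5 and 1.69 to 2.93. No paired analysis was possible because there was only 1 ChIP library per injection. Depth limits every comparison of the lists, since more reads let weaker peaks pass, and no read counts were at hand.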
